A study of Mus musculus with 3 samples.

Results

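Monocyte-gate cells were the barcodes of 3 single-cell RNA libraries that carried RNA of genes which mark monocytes, the short-lived white cells that leave the blood and enter inflamed tissue. A barcode is the sequence tag of 1 droplet, and a UMI (unique molecular identifier) counts 1 captured RNA molecule. A barcode needed 500 or more UMIs, 300 or more genes with a UMI, and no more than 15% of its UMIs from mitochondrial genes. The gate then asked for at least 5 UMIs per 10000 of Ly6c2, Ccr2, Chil3 and F13a1 together and at least 10 per 10000 of Lyz2. It allowed at most 1 UMI of the precursor genes Elane, Mpo and Ms4a3, under 100 per 10000 of the neutrophil genes S100a8 and S100a9, under 10 per 10000 of the macrophage genes Pf4, Ms4a7 and Mrc1, and 0 UMIs of Cd79a, Cd3e, Ncr1 and Flt3. In all, 473 of 23699 kept barcodes (27200 deposited) met the rule. The cells were thus chosen by measured RNA levels, and those of the 17 genes of the rule are given below as description, with no test.

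All animals were B6(Cg)-Tyrc-2J/J mice, an albino C57BL/6 strain with an intact immune system, and none was treated. Tumour 1 and tumour 2 were brainstem from mice that had received 100000 cells of the murine diffuse midline glioma line DIPG4423 into the brain at 6 weeks of age, taken 3 weeks later. The third library, called normal, was brainstem without a tumour. Its label names neither an injection nor an age, the graft is 1 cell line, and nothing says how many brainstems went into a library beyond the 1 mouse each title names. Every mouse was perfused with saline, and the tissue was ground, depleted of myelin with magnetic beads and treated to lyse red cells.

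Classical monocytes of the mouse carry much Ly6c2, a surface protein of the Ly6 family, and leave the bone marrow through Ccr2, the receptor for the chemokine Ccl2. In inflamed or tumour-bearing tissue they lose Ly6c2 and Plac8 while they turn into macrophages, which gain complement C1q, apolipoprotein E and lysosomal enzymes. Microglia, the resident macrophages of the brain, also carry C1q and Apoe, and are marked by P2ry12, Tmem119 and Sall1.

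The gate held 57 cells in tumour 1, 271 in tumour 2 and 145 in normal. Wherever 3 values are given below with no library named, they are in that order. These were 0.522% of the kept barcodes of tumour 1 (exact Clopper-Pearson 95% interval 0.395 to 0.675%), 2.81% of tumour 2 (2.49 to 3.16%) and 4.63% of normal (3.92 to 5.43%). Of kept barcodes with a UMI of Ptprc, the pan-leukocyte gene, they were 1.41%, 4.38% and 8.97%. All 3 intervals lay apart, with the normal library highest. Intervals cover counting error only, and 2 libraries against 1 cannot give an exact permutation p under 1 in 3, so the shares were not tested. The normal library also had more of other blood lineages. Barcodes with over 1 UMI of Elane, Mpo and Ms4a3, genes of granulocyte precursors in bone marrow, were 0.0458%, 0.104% and 3.71% of tumour 1, tumour 2 and normal. Barcodes with a UMI of the B cell gene Cd79a were 0.311%, 1.34% and 7.22%. Their part in the monocyte share was not tested.

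**Figure D1:**
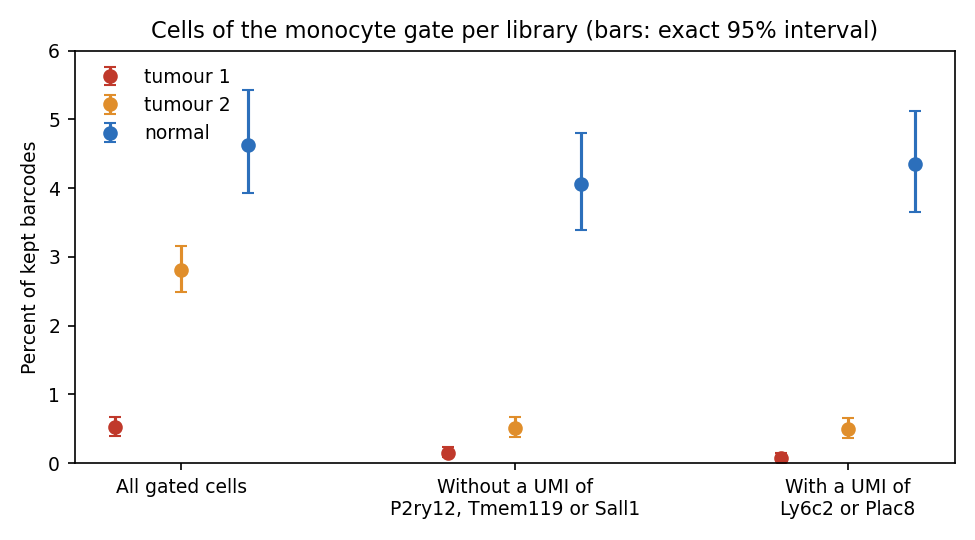
Percent of kept barcodes that fell in the monocyte gate in each library, with exact 95% intervals, for all gated cells, for those without a UMI of 3 microglia genes and for those with a UMI of Ly6c2 or Plac8. The tumour libraries fall from 0.522% and 2.81% to under 0.51% in both subsets, and normal stays at 4.06% or above. Cells were not thinned for these subsets, and gated cells were deeper in the tumour libraries than in normal. The part of depth was not tested.

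Depth differed between libraries. The gated cells summed to 901492 UMIs in tumour 1, 3852268 in tumour 2 and 787426 in normal, with medians of 13150, 12874 and 4812 UMIs per cell. A caller of doublets (droplets with more than 1 cell) marked 4, 12 and 2 of them. A barcode under 2000 UMIs meets the threshold of the 4 genes with 1 UMI, and 8.77%, 2.95% and 6.90% of the gated cells were that shallow. No gated cell shared its barcode with a kept barcode of another library. Summed over the gated cells, the 8 microglia markers stood at 1174, 1521 and 575 CPM (counts in 1000000 UMIs of the sum) in tumour 1, tumour 2 and normal, and all 8 had a UMI in each library. The 8 markers of glioma or oligodendrocyte progenitors stood at 808, 177 and 15.2 CPM, with Pdgfra, Olig1, Olig2, Sox10 and C1ql1 at 0 in normal. The 10 neutrophil markers stood at 290, 87.7 and 1088 CPM, with Ly6g and Camp at 0 in both tumour libraries. The 6 endothelial markers stood at 11.1, 33.0 and 243 CPM and the 6 neuron markers at 3.33, 2.34 and 52.1. Other gates, defined below, were set beside these sums. The microglia markers stood at 1022, 1476 and 300 CPM in the neutrophil gate, which should lack them. In the microglia gate, whose rule asks for P2ry12 and Tmem119, they stood at 9097, 10940 and 19927. In the macrophage gate, whose rule caps both genes, they stood at 1147, 1916 and 1523. The glioma or progenitor markers stood at 1789, 477 and 42.0 CPM in the neutrophil gate. In the macrophage gate they stood at 176, 83.4 and 44.8, and in the microglia gate at 390, 214 and 55.9. The part of these other cell types in the results was not tested.

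The markers that name the gate did not hold alike in the 3 libraries. Ly6c2 (chromosome 15, 75108158 to 75111970, GRCm38) stood at 124 CPM in tumour 1, 55.8 in tumour 2 and 3288 in normal. Plac8 (chromosome 5, 100553725 to 100572245), a cysteine-rich protein of classical monocytes that the gate did not use, stood at 31.1, 52.4 and 2776 CPM. Ccr2 was at 344, 897 and 1565 CPM. These markers were highest in normal, by the widest margin for Plac8 and Ly6c2. Chil3, a chitinase-like secreted protein, stood at 451, 641 and 2769 CPM. The neutrophil gate held more Chil3 in every library, at 3304, 1730 and 6125 CPM. F13a1, a subunit of coagulation factor XIII that some tissue macrophages also carry, stood at 772, 239 and 2028 CPM. Lyz2, the lysozyme of myeloid cells, stood at 5293, 6122 and 22674 CPM. Its near-identical copy Lyz1 and the Ly6c2 copy Ly6c1 (0, 0.519 and 53.3 CPM) may have traded some reads with them.

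The genes that let cells into the gate differed too. A cell depended on a gene when that gene met the threshold and the other 3 together did not. In tumour 1, 35.1% of the gated cells depended on F13a1 in this way, and in tumour 2 52.4% depended on Ccr2. In normal 0% depended on F13a1 and 6.21% on Ccr2. No cell of any library depended on Ly6c2. In the tumour libraries many cells lay near the threshold: 18 cells of tumour 1 and 72 of tumour 2 had 5 to 7.5 UMIs per 10000 of the 4 genes, and 37 and 118 that met the other terms had 2.5 to 5. Just inside, C1qa was at 3423 CPM (tumour 1) and 3453 CPM (tumour 2), and just outside at 4153 and 4029. Plac8 was at 29.3 and 4.54 CPM just inside and 0 and 0.535 just outside. In normal only 3 cells lay just inside and 1 just outside. The median cell of normal had 83.8 UMIs per 10000 of the 4 genes, against 9.51 and 10.5 in tumour 1 and tumour 2.

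Cell by cell, the gate held 2 kinds of profile. Each cell was thinned at random to 1000 UMIs, which left out 3 shallower cells per library, so that depth did not set the shares. A UMI of Ly6c2 or Plac8 was then found in 4 of 54 cells of tumour 1 (7.41%, 2.06 to 17.9%), 20 of 268 of tumour 2 (7.46%, 4.62 to 11.3%) and 130 of 142 of normal (91.5%, 85.7 to 95.6%). A UMI of C1qa, C1qb or C1qc, the chains of complement C1q, was found in 90.7%, 82.5% and 9.86%. In the tumour libraries most gated cells had a C1q UMI, and in the normal library most had one of Ly6c2 or Plac8. In the neutrophil gate of the same libraries, where C1q should be lacking, a C1q UMI was found in 23.4%, 35.7% and 5.56%. Cells with both kinds of UMI were 0 of 54, 8 of 268 and 7 of 142, and cells with neither were 1, 35 and 5. Taking 3 cells as the floor, a count of 0 among 54 cells allows a share of up to 5.56%. Without thinning, the Ly6c2 or Plac8 shares were 14.0%, 17.7% and 93.8%. In the microglia gate, where these genes should be lacking, the thinned share was 0%, 0.275% and 1.43%, and in the macrophage gate 0%, 0.184% and 6.67% (1 of 15 cells). In the neutrophil gate it was 15.8%, 12.9% and 57.0%, which lay above the monocyte gate in both tumour libraries. The median depths of the neutrophil gate were 2170, 2650 and 3398 UMIs, and those of the microglia gate 3946, 8245 and 1745. The kept cells of each whole library had median depths of 9012, 11443 and 2429 UMIs. Plac8 is the only 1 of the 5 markers that the gate did not use. By it alone the label of monocytes fits the normal library, where it stood at 2776 CPM. The normal cells also held Mki67, a gene of dividing cells, at 513 CPM and Ctsg, a gene of granulocyte precursors, at 24.1 CPM. How these bear on the label was not tested. In the tumour libraries Plac8 goes against the label, at 31.1 and 52.4 CPM. The cells are called monocyte-gate cells below.

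**Figure D2:**
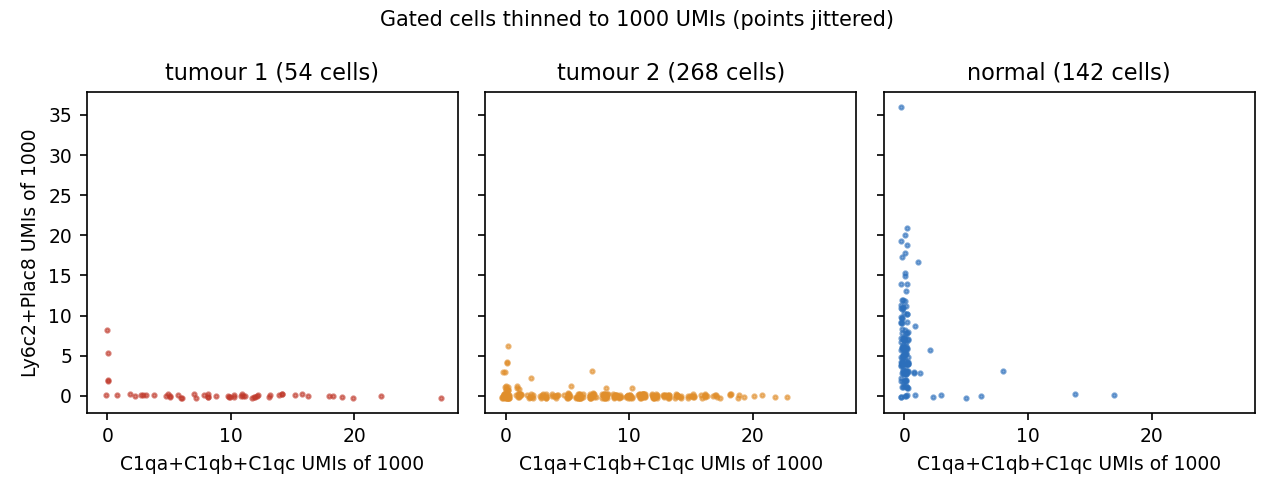
Each point is 1 monocyte-gate cell thinned to 1000 UMIs, with its UMIs of C1qa, C1qb and C1qc on the x axis and of Ly6c2 and Plac8 on the y axis, per library. The normal cells lie along the y axis, and most cells of both tumour libraries lie along the x axis.

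The shares of cells with a UMI of other genes differed between the libraries too. In thinned cells Apoe, the lipid carrier, had a UMI in 98.1%, 98.5% and 19.0% of tumour 1, tumour 2 and normal. A UMI of P2ry12, Tmem119 or Sall1 was found in 14.8%, 19.0% and 4.93%. The neutrophil gate, which should lack these 3 genes, held P2ry12 at 49.4, 121 and 26.9 CPM, against 103, 94.2 and 49.5 in the monocyte gate. Sall1 stood there at 24.2, 23.7 and 6.84 CPM, against 12.2, 7.79 and 14.0. Tmem119 stood there at 27.2, 43.1 and 9.28 CPM, against 121, 169 and 15.2. Ace and Treml4, genes of patrolling monocytes, were rare: Ace was found in 0 of 54, 2 of 268 and 2 of 142 cells, and Treml4 in 0, 5 and 2. Other genes listed for such monocytes were not all rare. Cx3cr1 stood at 757, 1263 and 316 CPM and Spn at 11.1, 8.83 and 154. Cd209a, a gene of monocyte-derived dendritic cells, was found in 0, 0 and 3.

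Set beside the other gates, monocyte-gate cells carried more of a small group of genes in every library. These levels were not tested, because the gates themselves are cut by expression. Against the macrophage gate, S100a6, a calcium-binding protein, was at least 3.87 times as high in each library, Fn1, the matrix protein fibronectin, 3.29 times and Ifitm3, an interferon-induced membrane protein, 3.12 times. S100a6 stood at 302, 446 and 2168 CPM in the monocyte gate and 36.9, 28.1 and 560 in the macrophage gate. Against the microglia gate the widest steady gaps were in H2-Aa (at least 40.2 times; 507, 2356 and 317 CPM against 4.53, 58.6 and 1.55), H2-Eb1 and S100a6. Crip1, a small zinc-binding protein, was at least 12.6 times and Tgfbi, a secreted matrix protein, at least 10.7 times as high. Against the neutrophil gate Ms4a6c was at least 41.6 times and Crip1 at least 36.8 times as high.

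**Figure D3:**
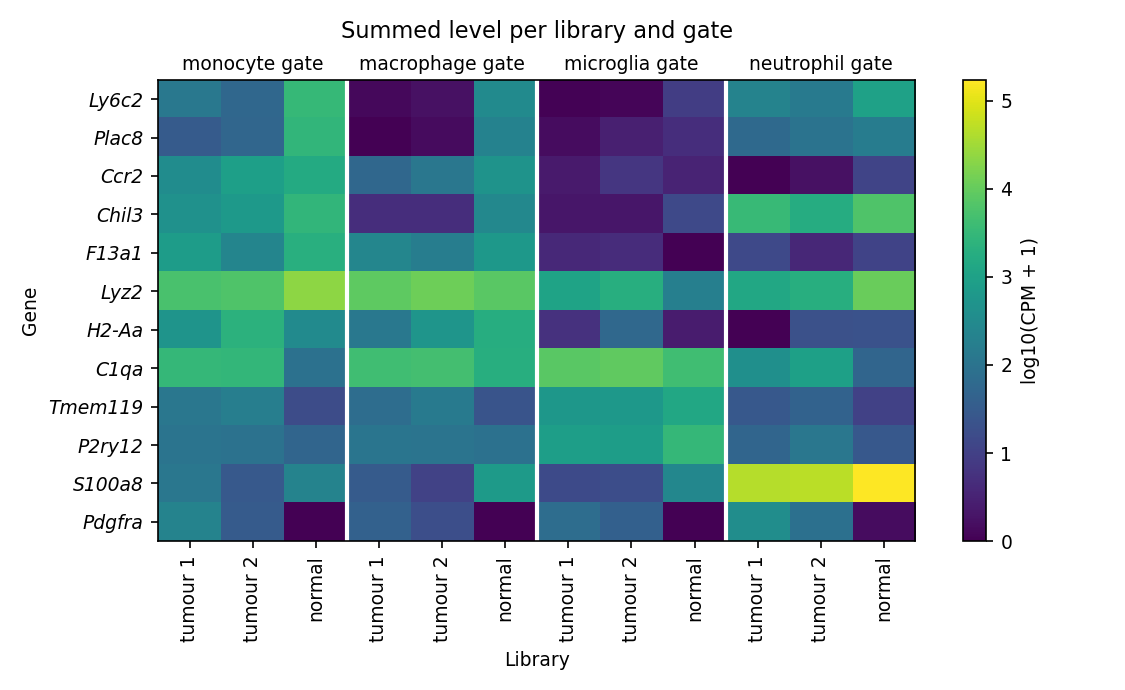
Level of 12 genes, as log10 of CPM plus 1, summed over the cells of 4 gates in each library. In the monocyte gate Ly6c2 and Plac8 are brightest in normal and C1qa in the tumour libraries. The microglia gate carries the most Tmem119 and P2ry12, which its rule asks for.

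Which transcripts differed between tumour-bearing and normal brainstem within the gate was tested on the summed counts, 2 libraries against 1, with edgeR's quasi-likelihood test. The normal library has no replicate and is assumed to vary like the tumour pair. Nothing in the labels ties or separates the animals beyond their titles, so a p-value here reflects only how these libraries vary, which may be technical. Of 9266 genes tested, 801 were higher (8.64%) and 751 lower (8.10%) in tumour at an adjusted p (Benjamini-Hochberg) under 0.05. In all, 1552 (16.7%) passed in either direction. With library sizes in place of the TMM scaling the split was 728 higher and 1106 lower, and the median log2 change of all genes moved from 0.04 to -0.15. In 83.8% of the tested genes both tumour libraries lay on the same side of normal. The tumour and normal cells of the gate also differed in the C1q and Ly6c2 shares above, so each change is between those cell mixtures.

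The 12 genes with the largest fitted rise, among those outside the gate rule with a mean of at least 50 CPM, had no count in the normal cells, so their fitted values depend on the prior count and bounds are given in their place. Rgs1, a regulator of G protein signalling in leukocytes, had 365 CPM in tumour 1, 297 in tumour 2 and no count in normal. That is at least 81.3-fold higher, taking 3 counts as the floor of the normal sum (adjusted p = 1.8e-09, edgeR). Mmp14, a membrane-bound matrix metalloproteinase, was at least 45.3-fold higher (184 and 170 CPM against 0), Itgax, the integrin CD11c, at least 28.8-fold, Il1b at least 28.4-fold, Gpnmb at least 23.9-fold and Cd38 at least 21.3-fold. Both tumour libraries were above normal in each of them. Arg1, the arginase of suppressive macrophages, was at 254 and 41.8 CPM against 0, at least 21.5-fold higher, with tumour 1 far above tumour 2. Ier3, an early response gene, was at least 16.3-fold higher. Pdgfra (221 and 31.1 CPM), Igfbp2 (174 and 36.9), Cspg5 (128 and 44.9) and Xist (153 and 29.1) were also at 0 in normal and called higher, Pdgfra not by DESeq2 (adjusted p = 0.052). Pdgfra and Cspg5 are genes of glial progenitors, and Xist is a long non-coding RNA made from the inactive X of females. These 4 were several times higher in tumour 1, as were the summed glioma markers given above, whose part was not tested. The neutrophil gate had more Pdgfra than the monocyte gate in every library, at 364, 86.2 and 0.489 CPM. In the macrophage gate Pdgfra stood at 42.3, 16.8 and 0 CPM, and in the microglia gate at 74.7, 39.0 and 0. A rise of Pdgfra was thus not particular to the monocyte gate.

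Among the genes that fell, Plac8 changed by -5.81 on the log2 scale (SE 0.47, adjusted p = 4.1e-10, edgeR). Tmsb10, an actin-binding peptide, fell from 7358 CPM in normal to 453 and 570, and Itga1, an integrin chain, from 204 to 18.9 and 8.05. Ngp, a neutrophil granule protein, stood at 1.11, 0.26 and 276 CPM, and did not pass with S100a8 and S100a9 held under 20 per 10000 (log2 change -4.97, adjusted p = 0.087, edgeR). It came from few cells, since the 136 normal cells with a UMI of Ly6c2 or Plac8 held 14 of its 217 UMIs. Further genes under the same rule were Ifitm6, Spn (the sialophorin CD43), Itgb7, the predicted coding gene Gm21188 and the long non-coding RNAs AI839979, Cdr1os and Gm36161.

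The lists of related genes below were chosen with earlier results of these data known, leave out the genes of the rule, and are described by counts beside the 8.64% higher and 8.10% lower of all genes. Of 19 classical monocyte genes tested, 14 fell and 0 rose, with a median log2 change of -2.59. Ifitm6 stood at 22.2, 27.3 and 405 CPM (log2 change -3.80), Cd177 at 9.98, 6.75 and 91.4 (-3.35), and Ms4a4c at 59.9, 109 and 598 (-2.59). Normal was above both tumour libraries in each. Vcan, the proteoglycan versican, stood at 232, 68.0 and 136 CPM and did not pass (adjusted p = 0.77, edgeR). Of 15 genes of patrolling monocytes, 5 fell and 3 rose (median -0.92). Those that rose were Itgax, Cd36, a scavenger receptor (20.0, 14.3 and 1.27 CPM, the last 1 count; ratio 12.1, counting interval 2.10 to 484), and the fractalkine receptor Cx3cr1 (757, 1263 and 316 CPM, log2 change 1.87, SE 0.49, adjusted p = 0.0069, edgeR).

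Genes of macrophage differentiation went the other way: 18 of 23 tested rose and 0 fell, with a median log2 change of 3.33. Apoe stood at 26410, 30136 and 409 CPM (log2 change 6.29, SE 0.87, adjusted p = 3.2e-06, edgeR). C1qa stood at 3021, 2912 and 88.9 CPM (log2 change 5.23). Lgmn, the lysosomal protease legumain, stood at 1291, 1285 and 77.5 CPM, and Trem2, a lipid-sensing receptor, at 691, 735 and 61.0. The tumour pair was close in these 4 genes and apart from normal. Spp1, the secreted protein osteopontin, differed within the pair, at 996 and 252 CPM against 6.35 (log2 change 6.72, SE 0.79), as did Hmox1, the haem oxygenase, at 2466 and 323 against 58.4. Adgre1, Cd68, Ctsb, Lpl and Lgals3 did not pass. All 5 had values of at least 70 CPM in each library. C1qa stood at 8052, 9116 and 4296 CPM in the microglia gate, whose rule asks for C1q, so this level is description only.

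Of 20 transcription factors of the monocyte line, 3 rose and 5 fell (DESeq2 called 2 higher and 1 lower). Maf, a factor that promotes macrophage identity, stood at 328, 480 and 48.3 CPM (log2 change 3.26, SE 0.48, adjusted p = 7.6e-06, edgeR). Bhlhe40 was at 30.0, 54.0 and 5.08 CPM. Klf4, which monocytes need to form, stood at 44.4, 36.1 and 390 CPM (log2 change -3.12, SE 0.35, adjusted p = 9.0e-08, edgeR). Klf2, Klf13, Cebpd and Id3 fell as well. The shared myeloid factors had like values on each side: Spi1, the factor PU.1, stood at 243, 353 and 290 CPM (adjusted p = 0.74) and Irf8 at 232, 329 and 237 (adjusted p = 0.50, edgeR for both).

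Of 12 receptors for chemokines and growth factors tested, 4 rose and 2 fell. The anaphylatoxin receptor C3ar1 stood at 206, 241 and 3.81 CPM. With 3 counts in normal the ratio was 61.5 (counting interval 21 to 298; adjusted p = 2.6e-08, edgeR). C5ar1 (63.2, 80.2 and 16.5 CPM), Cx3cr1 and Ccr1 (258, 331 and 124 CPM) also rose. Cxcr4, which holds leukocytes in the marrow, stood at 18.9, 70.3 and 307 CPM (log2 change -2.46, adjusted p = 8.9e-05, edgeR; DESeq2 adjusted p = 0.43), and Fpr2 fell too. Csf1r, the receptor that macrophages depend on, stood at 512, 835 and 329 CPM and did not pass (adjusted p = 0.057, edgeR).

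Of 10 ligands that draw monocytes in, 4 had enough counts to be tested, and 3 of them rose (DESeq2 called 1). Ccl12 stood at 437, 138 and 2.54 CPM, a ratio of 76.8 over the 2 counts of normal (counting interval 21.2 to 635; adjusted p = 1.7e-07, edgeR). Ccl2 stood at 182, 23.1 and 17.8 CPM (log2 change 2.55, adjusted p = 0.013, edgeR) and Ccl7 at 61.0, 6.75 and 2.54 (2 counts in normal; ratio 6.71, counting interval 1.80 to 56.3). For Ccl2 and Ccl7, tumour 2 was close to normal. Without tumour 1 the fitted log2 change of Ccl2 was 0.64 and that of Ccl7 1.65, and neither passed with called doublets removed (adjusted p = 0.080 and 0.11). Cxcl12, the ligand of Cxcr4, was at 1.11, 0 and 20.3 CPM and did not pass.

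Of 14 adhesion genes, 6 fell and 3 rose. Those that fell included Itgb7, Itga4, the ligand chain Selplg, Cd44 and Cd47. F11r, a junctional adhesion molecule, stood at 63.2, 184 and 8.89 CPM (log2 change 4.04, SE 0.64, adjusted p = 2.4e-05, edgeR) and the tetraspanin Cd9 at 384, 263 and 33.0 (3.45). Icam1 rose as well. Of 12 antimicrobial genes, 6 fell and 1 rose. Camp, a neutrophil granule peptide, was at 0 in both tumour libraries and 91.4 CPM in normal, at least 145-fold lower in tumour. Only 12 of its 72 UMIs in normal lay in the 136 cells with Ly6c2 or Plac8. Slpi, a protease inhibitor, stood at 20.0, 21.8 and 144 CPM. Lyz1, whose reads can be confused with those of Lyz2, was the member that rose (4.44, 43.9 and 2.54 CPM, the last 2 counts; ratio 14.3, counting interval 3.91 to 119). It did not pass with called doublets removed (adjusted p = 0.0503, edgeR) or in DESeq2 (adjusted p = 0.24), and its fitted log2 change was 0.87 without tumour 2.

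MHC class II genes, which present peptides to helper T cells, were higher in tumour, and most of all in tumour 2. Of 9 tested, 7 rose and 0 fell, with a median log2 change of 2.40. H2-Aa stood at 507, 2356 and 317 CPM (log2 change 2.40, SE 0.64, adjusted p = 0.0084, edgeR). Cd74, the invariant chain that loads class II, stood at 1755, 6999 and 688 CPM (log2 change 2.89, adjusted p = 0.0034, edgeR). Tumour 1 lay nearer to normal than to tumour 2 for both. The list's median was 1.00 without tumour 2 and 3.13 without tumour 1. DESeq2 called 1 member, H2-DMb1, higher, and gave adjusted p = 0.60 for H2-Aa. Per thinned cell, the class II genes together had a median of 1 UMI in 1000 in tumour 1 (quartiles 0 and 4), 10 in tumour 2 (2 and 25) and 0 in normal (0 and 1). H2-Aa had a UMI in 24.1%, 57.5% and 5.63% of cells. Of 11 MHC class I genes, 0 passed in either direction at the adjusted threshold in edgeR. With library sizes alone 2 fell, B2m and H2-D1, which stood at 865, 1429 and 2657 and at 414, 736 and 1190 CPM. DESeq2 called none.

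Class II genes share promoter elements, and the windows of 2 class II genes that rose are shown, picked because they hold a match. The Y box CTGATTGG, searched on both strands in the 250 bases before the start of the gene, is in capitals in both sequences (RefSeq, GRCm38.p6). It occurs in 3.83% of 32851 such windows, and in 2 of 5 class II genes with a window.
H2-Aa, chr17:34287824-34288073, minus strand: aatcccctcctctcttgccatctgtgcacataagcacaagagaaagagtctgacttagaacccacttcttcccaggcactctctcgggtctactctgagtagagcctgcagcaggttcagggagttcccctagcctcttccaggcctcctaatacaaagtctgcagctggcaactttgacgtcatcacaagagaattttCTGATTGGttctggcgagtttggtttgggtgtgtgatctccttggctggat
H2-Eb1, chr17:34305617-34305866, plus strand: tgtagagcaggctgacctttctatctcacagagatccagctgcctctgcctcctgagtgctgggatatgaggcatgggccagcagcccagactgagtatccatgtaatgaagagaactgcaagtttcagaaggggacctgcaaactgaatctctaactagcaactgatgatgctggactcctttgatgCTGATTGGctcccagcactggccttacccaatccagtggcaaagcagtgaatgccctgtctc
The match begins 51 bases before the start of H2-Aa and 62 bases before that of H2-Eb1. A match is a description of these letters and not a measured binding site.

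Interferon response genes were lower in the tumour cells of the gate. Of 18 tested, 11 fell and 1 rose, with a median log2 change of -1.80. Oas3, an antiviral synthetase, stood at 4.44, 3.63 and 61.0 CPM (log2 change -3.75, SE 0.54, adjusted p = 6.3e-06, edgeR). Ifi209, a DNA sensor of the p200 family, stood at 32.2, 30.1 and 382 CPM (-3.44). Both tumour libraries lay below normal in both genes. Ifit1, an inhibitor of viral translation, stood at 11.1, 2.08 and 43.2 CPM (-2.93; adjusted p = 0.0031, edgeR; DESeq2 adjusted p = 0.21). Bst2, the tetherin that holds back virus particles, was the member that rose (364, 539 and 154 CPM, log2 change 1.75). Isg15 and Rsad2 stood at 52.1, 23.4 and 50.8 and at 102, 5.45 and 53.3 CPM and did not pass. Cxcl10, a chemokine for T cells, stood at 283, 4.41 and 25.4 CPM, so that normal lay between the tumour libraries (adjusted p = 0.092, edgeR). DESeq2 called 5 members lower.

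The interferon-stimulated response element, searched as GAAA, any 2 bases and GAAA again on both strands of the same windows, occurs in 2.98% of all windows and in 8 of the 13 genes of this list that have one. Oas3 and Ifit1 are shown as members that fell, with the element in capitals.
Oas3, chr5:120777660-120777909, minus strand: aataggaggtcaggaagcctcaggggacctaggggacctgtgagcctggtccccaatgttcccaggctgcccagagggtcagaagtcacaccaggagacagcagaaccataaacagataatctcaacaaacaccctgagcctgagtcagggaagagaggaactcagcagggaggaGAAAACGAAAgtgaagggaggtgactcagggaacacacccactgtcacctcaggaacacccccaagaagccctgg
Ifit1, chr19:34640639-34640888, plus strand: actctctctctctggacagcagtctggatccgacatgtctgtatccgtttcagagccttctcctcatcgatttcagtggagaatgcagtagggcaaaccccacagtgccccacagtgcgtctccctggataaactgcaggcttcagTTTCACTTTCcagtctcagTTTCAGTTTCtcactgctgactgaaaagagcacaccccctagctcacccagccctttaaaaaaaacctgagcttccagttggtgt
The match begins 75 bases before the start of Oas3. Ifit1 has 2 matches on the opposite strand, 104 and 85 bases before its start. The list members with the element include Isg15, Rsad2 and Cxcl10, which did not pass.

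Genes of suppressive myeloid cells and of hypoxia were mostly higher. Of 12 suppressive genes tested, 7 rose and 0 fell (median 2.14). Besides Arg1, Thbs1, the matrix protein thrombospondin, stood at 125, 70.1 and 8.89 CPM (log2 change 3.58, SE 0.53, adjusted p = 9.1e-06, edgeR). Vegfa, the vessel growth factor, stood at 79.9, 31.9 and 5.08 CPM (3.52) and Havcr2, the receptor TIM-3, at 77.7, 108 and 12.7 (3.08). Cd274, the checkpoint ligand PD-L1, was at 15.5, 13.8 and 2.54 CPM and did not pass (adjusted p = 0.086, edgeR). Tgfb1 stood at 189, 323 and 178 CPM and did not pass. Il10 and Ido1 had 0 counts in every library, which allows up to 3 counts in each sum.

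Of 16 genes of hypoxia and glycolysis tested, 11 rose and 1 fell (DESeq2 called 6 higher and 1 lower). The median log2 change was 1.74, or 1.55 with Egln3, at 0 in normal, set to its bound. Mif, a secreted cytokine, stood at 775, 397 and 67.3 CPM (log2 change 3.27, SE 0.50, adjusted p = 1.4e-05, edgeR), Ldha, the lactate dehydrogenase, at 670, 395 and 141 (2.07) and Bnip3, a mitophagy receptor, at 169, 58.1 and 20.3 (2.57). Tumour 1 was the higher library in all 3. Ndrg1, another hypoxia-induced gene, stood at 14.4, 13.5 and 99.1 CPM (-2.64), the member that fell, and Slc2a1, the glucose transporter, at 43.3, 41.5 and 48.3.

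Of 13 inflammatory cytokine genes tested, 4 rose and 1 fell. The median was 2.39, or 1.28 with the 3 members at 0 in normal set to their bound. Il1b stood at 46.6, 123 and 0 CPM, and Cxcl16, a membrane-bound chemokine, at 308, 321 and 10.2 (log2 change 5.12, SE 0.54, adjusted p = 4.6e-08, edgeR). Ccl6, a chemokine, fell, from 768 CPM in normal to 211 and 170. Of 14 Fc and pattern receptors tested, 5 rose and 0 fell (median 0.61). Cd14, the co-receptor for endotoxin, stood at 66.6, 81.8 and 12.7 CPM (2.74), and Clec4d, Fcgr1, Fcgr3 and Fcgr4 rose too. The signalling adaptors Tyrobp (1886, 2205 and 2163 CPM) and Fcer1g (1962, 2136 and 1664) did not pass.

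Of 14 genes of lipid and iron handling, 6 rose and 1 fell. Abca1, a cholesterol exporter, stood at 273, 198 and 11.4 CPM (log2 change 4.51, SE 0.52, adjusted p = 1.7e-07, edgeR), and the ferritin chain Fth1 at 13032, 8239 and 1407 (3.08). Tfrc, which takes up iron, was the member that fell (2.22, 10.4 and 34.3 CPM). Of 17 genes that tissue dissociation is known to induce, 6 rose and 0 fell (median 0.94, or 0.31 without tumour 2). Jun stood at 186, 324 and 43.2 CPM (2.77) and Egr1 at 93.2, 33.7 and 1.27 (1 count in normal; ratio 35.4, counting interval 6.29 to 1407), while Fos was at 99.8, 72.4 and 97.8. Their part in the other changes was not tested.

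Cell cycle genes were lower in the tumour cells of the gate: 9 of 15 fell and 0 rose (median -1.38; DESeq2 called 4 lower). Rrm2, a subunit of ribonucleotide reductase, stood at 14.4, 12.7 and 116 CPM (log2 change -2.92, SE 0.38, adjusted p = 1.2e-06, edgeR), Ccna2, a cyclin, at 22.2, 11.7 and 127 (-2.86) and Top2a, the topoisomerase of dividing cells, at 212, 81.8 and 574 (-1.85). In thinned cells a UMI of Mki67 or Top2a was found in 9.26%, 6.34% and 24.6%. Tumour 1 lay above tumour 2 for Top2a. In cells with Ly6c2 or Plac8, Top2a stood at 673, 65.9 and 589 CPM. The value of tumour 1 rests on 8 cells, which also held Pdgfra at 719 CPM.

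**Figure D4:**
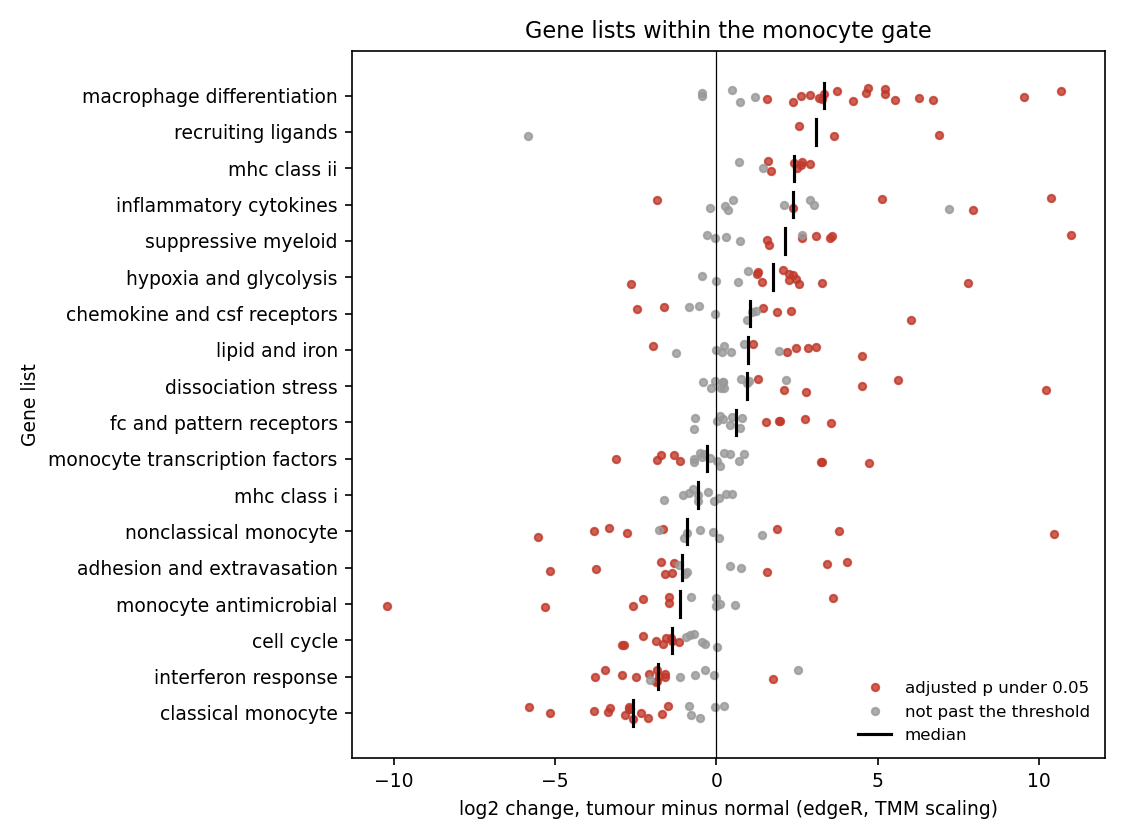
Log2 change between tumour and normal in monocyte-gate cells for each tested gene of 18 lists, with a bar at each list's median; red points passed an adjusted p under 0.05 (edgeR). Macrophage differentiation genes lie to the right (median 3.33) and classical monocyte genes to the left (median -2.59). Points beyond 7 in size are genes at or near 0 counts in a group, whose fitted values depend on the prior count.

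Cells with a UMI of Ly6c2 or Plac8 were looked at on their own, a subset chosen after the values were seen, so no test was made. They numbered 8 in tumour 1, 48 in tumour 2 and 136 in normal, or 0.0732%, 0.498% and 4.35% of kept barcodes. Chil3 stood at 2624, 3311 and 2776 CPM in them, a much narrower range than over all gated cells. Other levels stayed apart: Ly6c2 was at 857, 373 and 3387 CPM, Plac8 at 214, 350 and 2860 and Lyz2 at 7865, 8052 and 22994. Apoe stood at 5356, 12558 and 287 CPM and C1qa at 1041, 922 and 40.6. Thbs1 stood at 429, 175 and 9.16 CPM, Vegfa at 283, 72.8 and 3.93 and Il1b at 191, 180 and 0. These 3 genes, picked after their values were seen, were at least as high in the tumour subsets as over all tumour cells of the gate. Of the other genes with the largest rise, Ier3, Pdgfra, Igfbp2, Cspg5 and Xist were also higher in both subsets. Rgs1, Mmp14, Arg1, Gpnmb, Cd38 and Itgax were lower in both. Rgs1 stood at 53.6, 133 and 0 CPM. H2-Aa stood at 15.3 CPM (2 counts), 1985 and 164, and so lay below normal in tumour 1. Pdgfra stood at 719, 62.4 and 0 CPM, and those 8 cells of tumour 1 held 94 of its 199 UMIs. Cells with no UMI of C1q numbered 5, 11 and 125. Ly6c2 stood at 2374, 96.1 and 3395 CPM in them and Apoe at 9326, 11514 and 253. The values of tumour 1 rest on few cells in both subsets.

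The tumour libraries also differed from each other, a comparison of 1 library with 1 that has no replicate check. H2-Eb1 was 4.80 times as high in tumour 2 as in tumour 1 (counting interval 4.33 to 5.34), and H2-Aa, H2-Ab1 and Cd74 were 3.99 to 4.65 times as high. Cxcl10 was 64.1 times as high in tumour 1 as in tumour 2 (39.2 to 112), Hmox1 7.64 times (7.12 to 8.19), and Slc7a11, a cystine importer, 7.46 times. Pdgfra and Arg1 were 7.09 and 6.08 times as high in tumour 1.

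Whether a change in the monocyte gate differed from that in another gate was tested as an interaction, with the library as a block. The gates share libraries but no cells. The normal library has no replicate here either, so these p-values do not measure how normal brainstems vary. Against the microglia gate, 1403 of 12923 genes differed (10.9%), 509 more positive (3.94%) and 894 more negative (6.92%) in the monocyte gate, and with library sizes alone 714 and 747. Pmepa1, an inhibitor of TGF-beta signalling, stood at 680, 778 and 20.3 CPM in the monocyte gate and at 500, 522 and 599 in the microglia gate (difference of log2 changes 5.18, SE 0.45, adjusted p = 2.0e-09, edgeR). The tumour cells of the monocyte gate lay near microglia in Pmepa1, and the normal cells did not. Mki67, a gene of dividing cells, stood at 245, 110 and 513 CPM in the monocyte gate and at 173, 165 and 4.66 in the microglia gate (difference -7.04, SE 0.53, adjusted p = 4.2e-10, edgeR). Ifi27l2a, an interferon-induced gene, stood at 96.5, 207 and 1901 against 85.3, 128 and 24.8 CPM (-6.00).

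Against the neutrophil gate, 617 of 11044 genes differed (5.59%), 311 more positive (2.82%) and 306 more negative (2.77%), and with library sizes alone 125 and 1951. Plac8 stood at 60.5, 99.1 and 160 CPM in the neutrophil gate, so its fall in the monocyte gate was the larger (difference -4.17, SE 0.52, adjusted p = 1.6e-12, edgeR). Cd63, a lysosomal tetraspanin, rose more in the monocyte gate (4.27). Wfdc17, an inhibitor of inflammation, stood at 184, 200 and 607 CPM in the monocyte gate and 621, 2202 and 60.6 in the neutrophil gate (-5.08).

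Against the macrophage gate, 692 of 12040 genes differed (5.75%), 349 more positive (2.90%) and 343 more negative (2.85%), and with library sizes alone 498 and 154. The macrophage gate of normal held 20 cells with 89289 UMIs. Ppbp, a gene of platelets, stood at 6003 CPM in them, and its part was not tested. Thbs1, which platelets also carry, stood at 34.9, 35.5 and 2587 CPM there (difference of log2 changes 9.07, SE 0.42, adjusted p = 1.5e-14, edgeR). Itga6, a laminin receptor chain, stood at 162, 201 and 26.7 CPM in the monocyte gate and 172, 229 and 717 in the macrophage gate (4.14). Mgst1, a glutathione transferase, stood at 120, 66.2 and 439 against 239, 170 and 67.2 CPM (-4.37). In the tumour libraries these genes lay closer between the gates than in normal.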

How the data were processed

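Libraries were made with the 10x Genomics 3' chemistry, per the labels' protocols. What the authors deposited are raw UMI counts, 1 matrix a library. The file headers name Cell Ranger 6.1.2 as their source, and the submitters' processing notes name mm10. Cells were gated as described (scanpy 1.11.5 for Scrublet, expected rate 8%, doublets kept in the main values). Counts were summed per library over each gate with at least 20 cells and tested under R 4.3.3 by the quasi-likelihood test of edgeR 4.0.16 (low counts removed by filterByExpr, TMM scaling, p-values adjusted by Benjamini-Hochberg over all genes tested). The fit had 1 residual degree of freedom. The scripts were tested on simulated data. A neutrophil gate (S100a8 and S100a9 at 100 or more per 10000), a macrophage gate (Pf4, Ms4a7 and Mrc1 at 10 or more) and a microglia gate (microglia genes at 5 or more, C1q at 10 or more, the 4 monocyte genes under 5) served for comparison. The microglia genes were P2ry12 and Tmem119, and the macrophage gate asked for them under 5.

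The gate, the markers and the gene lists were chosen with earlier results of these data known. Named genes were the genes of the gate and its markers; the 12 with the largest change in each direction at 50 CPM or more; up to 4 passing members of each list; up to 5 genes each way of each interaction; and the largest ratios between tumour libraries and between gates. Other genes named beside them are members of the lists, picked after their values were seen. Positions come from GENCODE mouse release 21 (GRCm38), where 32235 identifiers matched and 50 did not. Floors take 3 counts over a group. Some genes that the rule names are not reported here and still count in the totals.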

Additional observations from a re-analysis of the deposited data

Results flagged for a closer look

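The following genes changed between tumour and normal by a different amount in monocyte-gate cells than in another gate, by the edgeR interaction test, and are listed where every group held more than 3 counts. Values are the log2 change in the monocyte gate minus that in the other gate, over 2 tumour libraries and 1 normal library. The p-values lean on variance estimates shared over genes, so their small size does not come from replication. They do not measure how normal brainstems vary. Against the microglia gate they were Pmepa1 (5.18, adjusted p = 2.0e-09), Maf (4.32, adjusted p = 1.9e-08), Hmgb2 (-4.94, adjusted p = 1.3e-09), Ifi27l2a (-6.00, adjusted p = 2.6e-10), Top2a (-6.60, adjusted p = 2.0e-09) and Mki67 (-7.04, adjusted p = 4.2e-10).

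Against the neutrophil gate they were Thbs1 (7.44, adjusted p = 1.2e-35), Cd63 (4.27, adjusted p = 5.6e-10), H2-Aa (4.20, adjusted p = 3.5e-08), Itga6 (3.63, adjusted p = 1.0e-08), Plac8 (-4.17, adjusted p = 1.6e-12), Wfdc17 (-5.08, adjusted p = 1.2e-17) and Itga1 (-6.43, adjusted p = 2.9e-25). Against the macrophage gate, whose normal sum came from 20 cells, they were Thbs1 (9.07, adjusted p = 1.5e-14), Itga6 (4.14, adjusted p = 1.6e-07) and Mgst1 (-4.37, adjusted p = 7.5e-07).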

How the results depend on the processing

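The share of kept barcodes in the gate depended on how the gate was closed. Without cells holding a UMI of P2ry12, Tmem119 or Sall1 it was 0.146% in tumour 1 and 0.508% in tumour 2. Those cells were not thinned, and gated cells had median depths of 13150, 12874 and 4812 UMIs in tumour 1, tumour 2 and normal. A deeper cell has more UMIs in which to hold one of these genes. In thinned cells, as given above, fewer held such a UMI in every library. The part of depth in the lower shares was not tested. In subsets chosen after seeing the data it was 0.0732% and 0.498% with a UMI of Ly6c2 or Plac8, 0.0732% and 0.311% with 2 or more such UMIs, and 0.0458% and 0.114% with no C1q UMI. In normal, thinning barcodes before the gate gave 6.08%. Without thinning, 17.7% of the gated cells of tumour 2 had a UMI of Ly6c2 or Plac8 and 95.9% one of C1q.

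DESeq2 called 263 genes higher and 199 lower, and sums thinned to the smallest library 281 and 302; the cause was not tested, beyond the fewer counts that thinning leaves. With library sizes alone the interactions gave 154 more negative genes against the macrophage gate and 125 more positive and 1951 more negative against the neutrophil gate, and without a low-count filter 200 more negative against the latter. Of 100 named genes, DESeq2 left 79 on their side of the threshold and 16 not past it, and thinned sums 77 and 23. The other named genes had no DESeq2 adjusted p. Of the named genes that passed in edgeR and had a DESeq2 adjusted p, none changed sign under DESeq2. DESeq2 also called fewer members of other lists: 3 lower of the patrolling monocyte list, 3 higher and 0 lower of the receptors, 2 higher and 4 lower of the adhesion genes, 2 higher of the cytokines, 3 higher of the dissociation genes, 0 lower of the lipid and iron genes, and 0 higher and 4 lower of the antimicrobial genes. Leaving out a tumour library leaves 1 against 1, which gives values and no test. The interactions could not be fitted without one. The test without cells holding P2ry12, Tmem119 or Sall1 was not run, as tumour 1 then held 16 cells. No paired analysis was possible because the normal group has 1 library.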
